A study of Mus musculus with 30 samples.

Results

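Ovaries of adult female CD1 mice, an outbred stock, were compared 3 months after a 10-day course of diisononyl phthalate (DiNP) at 20 ug/kg/day or of vehicle alone. The comparison takes 3 libraries labelled DiNP 20 and 3 labelled vehicle control, by their titles, of 30 libraries in the series. The whole series also holds DiNP at 100 ug/kg/day and di(2-ethylhexyl) phthalate (DEHP) at 20 and 200 ug/kg/day, and a second collection at 0 months, directly after dosing. Of these, 3 more pairs of groups are used below, each with 3 libraries a group: DiNP 20 against DEHP 20 at 3 months, DiNP 20 against DiNP 100 at 3 months, and DiNP 20 against vehicle at 0 months. RNA came from the whole organ, and the labels do not say whether a library is 1 mouse or a pool, nor give the route or the vehicle. P-values therefore measure the spread between libraries, whatever its source.

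DiNP and DEHP are diesters of phthalic acid used to soften polyvinyl chloride, and DiNP, with longer branched side chains, serves as a replacement for DEHP. In the body both are cut to monoesters, which are the forms mainly studied as endocrine disruptors. The ovary makes estradiol in granulosa cells from theca cell androgen and progesterone in the corpus luteum, while oocytes wait in follicles that form a reserve. A comparison made months after dosing asks what of an exposure remains in the tissue once the compound is no longer given.

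The values are log2 CPM, the log2 of the share of a library's reads scaled to a common total, so a difference of 1 is a doubling. The 3 DiNP 20 libraries had approximately 25.0, 33.7 and 30.4 M reads on the scale of the table, against 34.3, 29.2 and 26.1 M reads in the controls, as read from the smallest steps between low values. Libraries correlated across genes at r = 0.97 to 0.978 within DiNP 20, at 0.952 to 0.972 within the controls and at 0.961 to 0.98 between the groups, so that DiNP 20 libraries were as like the controls as the controls were like each other. All 10 defining markers of the ovary were detected, in keeping with the tissue label: Inha, an inhibin subunit of granulosa cells, had 10.03, 10.29 and 10.73 log2 CPM with DiNP 20, against 11.14, 10.42 and 10.17 log2 CPM in controls.

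No gene passed the test. Of 14740 genes tested with limma in a fit over all 30 libraries, 0 (0%) had a Benjamini-Hochberg adjusted p under 0.05, and the lowest adjusted p was 1. An unadjusted p under 0.05 was reached by 224 genes (1.52%), 120 of them higher and 104 lower with DiNP 20, where uniform p-values would give 737. The count of 0 depended on how libraries were weighted: 788 genes passed with array weights whose estimation did not converge, and 3 (Gm10069, Zdhhc15 and Gm2423) with weights estimated gene by gene, a setting chosen after seeing the data. The array weights of the controls were 0.636, 35.1 and 0.587, against 1.96, 1.25 and 0.943 with DiNP 20. An array-weighted control mean is thus close to the value of control replicate 2 alone. Estimated gene by gene, the weights of the controls were 0.644, 3.97 and 0.578. Without weights, the median difference over all genes was 0.0011 log2, with 50.3% of genes above 0. The 95% confidence interval of the difference lay within 2-fold in either direction for 82.7% of genes and within 1.5-fold for 57.3%, and its median half-width was 0.41 log2, or 1.33-fold. Larger changes in the remaining genes, and small changes in any gene, are not shown to be absent. All 3 DiNP 20 libraries stood above all 3 controls for 438 genes (2.97%) and below them for 456 (3.09%). Each gene named below missed the threshold in this fit and is given by its levels, its difference and the standard error of that difference; genes are ranked by their unadjusted limma p. An exact permutation test of a single gene with 3 libraries against 3 cannot go below 0.10.

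**Figure D1:**
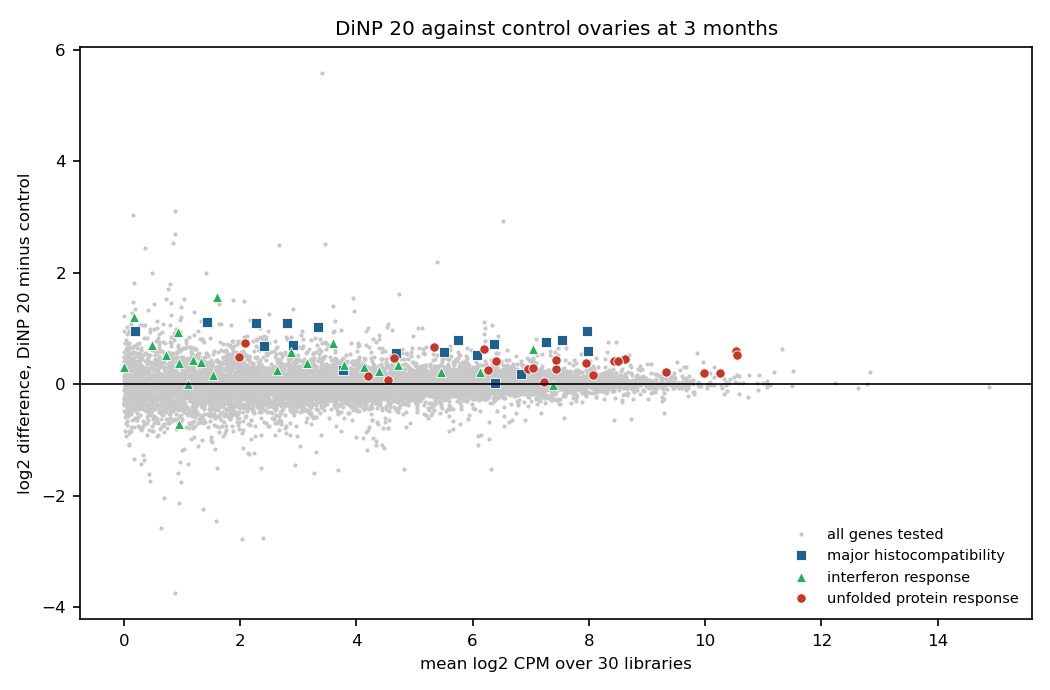
Log2 difference of DiNP 20 minus control at 3 months (y axis) against the mean log2 CPM over 30 libraries (x axis) for the 14740 genes tested (grey dots), with genes of antigen presentation (blue squares), interferon response (green triangles) and the unfolded protein response (red circles) marked. The cloud is centred on 0, with a median of 0.0011 log2, and 0.794% of genes lie more than 1 log2 from 0.

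The genes of smallest p on the higher side were of mixed kinds. C4b (Entrez 12268, chromosome 17, 34728139 to 34743902, GRCm38.p6), which encodes complement component 4 and has a near-identical neighbour, C4a, had 4.96, 4.67 and 4.65 log2 CPM with DiNP 20, against 3.84, 3.04 and 3.44 log2 CPM in controls. The groups were clear of each other by 0.81 log2, and the difference was 1.32 ± 0.37 log2 (SE, n = 3 each, limma adjusted p = 1), or 2.49-fold. The highest C4b library of each other treated group at 3 months lay within the DiNP 20 range. These were at 4.87 log2 CPM with DiNP 100, 4.95 log2 CPM with DEHP 20 and 4.90 log2 CPM with DEHP 200. Prag1 (Entrez 244418, chromosome 8), a pseudokinase known as pragmin, had the smallest p on this side. Its levels were 4.05, 4.06 and 4.18 log2 CPM with DiNP 20, against 3.46, 3.74 and 3.54 log2 CPM in controls, a difference of 0.52 ± 0.13 log2 (SE, n = 3 each, limma adjusted p = 1). The DiNP 20 libraries of Prag1 lay within a narrow band that no 3-month control reached. Control replicate 2 at 0 months, at 4.08 log2 CPM, and DiNP 100 replicate 2 at 3 months, at 4.11 log2 CPM, lay inside it.

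Dnajc3 (Entrez 100037258, chromosome 14), a co-chaperone of the endoplasmic reticulum, had 8.32, 8.16 and 8.40 log2 CPM with DiNP 20, against 7.78, 7.85 and 8.13 log2 CPM in controls. Control replicate 3 came close to the lowest DiNP 20 library, and the difference was 0.37 ± 0.12 log2 (SE, n = 3 each, limma adjusted p = 1). Npr1 (Entrez 18160, chromosome 3), the receptor for atrial natriuretic peptide, had 7.22, 7.45 and 7.31 log2 CPM with DiNP 20, against 7.13, 6.92 and 6.64 log2 CPM in controls. Fhl2 (Entrez 14200, chromosome 1), a LIM-domain cofactor of transcription, had 6.06, 6.48 and 6.16 log2 CPM with DiNP 20, against 5.35, 6.01 and 5.83 log2 CPM in controls. In both genes the top control lay within 0.1 log2 of the lowest DiNP 20 library. Golga4, a golgin of the trans-Golgi network, was similar, with 7.50, 7.50 and 7.42 log2 CPM for DiNP 20, against 7.04, 7.20 and 7.39 log2 CPM in controls.

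Several of the higher genes are known from immune cells. In bulk tissue, more cells of a type and more RNA per cell cannot be told apart. Il2rb (Entrez 16185, chromosome 15), the beta chain of the interleukin 2 receptor, had 3.48, 3.74 and 2.92 log2 CPM with DiNP 20, against 2.29, 2.60 and 2.68 log2 CPM in controls. Fgl2 (Entrez 14190, chromosome 5), a fibrinogen-like protein made by macrophages and T cells, had 7.21, 7.48 and 7.10 log2 CPM with DiNP 20, against 6.63, 7.06 and 6.77 log2 CPM in controls. The groups were clear of each other in both genes, by 0.24 log2 in Il2rb and by 0.04 log2 in Fgl2. Lgals4 (Entrez 16855, chromosome 7), a galectin best known from gut epithelium, had 3.20, 3.33 and 3.48 log2 CPM with DiNP 20, against 2.29, 3.13 and 2.07 log2 CPM in controls. Pop4 (Entrez 66161, chromosome 7), a protein subunit of ribonuclease P, had 5.21, 5.13 and 5.32 log2 CPM with DiNP 20, against 4.06, 3.87 and 4.46 log2 CPM in controls. The 3 DiNP 20 values of Pop4 were within 0.19 log2 of each other, and the difference of 1.09 ± 0.37 log2 (SE, n = 3 each, limma adjusted p = 1) was 2.13-fold. The remaining genes of smallest p on this side were annotated as noncoding. Gm2423, a transcribed pseudogene, had 7.75, 8.04 and 7.64 log2 CPM with DiNP 20, against 7.39, 7.09 and 7.38 log2 CPM in controls. Gm10069, a long noncoding RNA, had 1.38, 1.31 and 1.77 log2 CPM with DiNP 20, against 0.61, -0.92 and 0.16 log2 CPM in controls. How reads of such copies were shared out with their parent genes is not given in the sources used here.

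On the lower side, the genes of smallest p included several of low level. Kyat1 (Entrez 70266, chromosome 2), a kynurenine aminotransferase, had 2.67, 2.58 and 2.48 log2 CPM with DiNP 20, against 2.95, 3.19 and 3.24 log2 CPM in controls. Zdhhc15 (Entrez 108672, chromosome X), a palmitoyltransferase, had 2.49, 2.66 and 2.49 log2 CPM with DiNP 20, against 2.91, 3.23 and 2.88 log2 CPM in controls. Its 3-month means were 2.61 log2 CPM with DiNP 100, 2.7 with DEHP 20 and 2.68 with DEHP 200, against 3.01 in controls. Of those treated libraries only DEHP 200 replicate 2, at 2.89 log2 CPM, reached the controls, so the gap is not particular to DiNP 20. Bckdhb (Entrez 12040, chromosome 9), the beta subunit of the dehydrogenase that breaks down branched-chain amino acids, had 4.86, 5.13 and 4.96 log2 CPM with DiNP 20, against 5.46, 5.34 and 5.29 log2 CPM in controls. These 3 genes had clear gaps between the groups and differences of -0.55 ± 0.17, -0.46 ± 0.15 and -0.38 ± 0.14 log2 (SE, n = 3 each, limma adjusted p = 1). Cln6, an endoplasmic reticulum protein whose loss causes a lysosomal storage disease, and Commd10, a COMM domain protein, were lower by less, at -0.29 ± 0.10 and -0.32 ± 0.10 log2 (SE). Fhit, a hydrolase of dinucleoside polyphosphates, had 1.36, 1.51 and 2.11 log2 CPM with DiNP 20, against 2.57, 2.23 and 2.40 log2 CPM in controls. Lmtk3, a membrane kinase, had -0.87, -0.39 and -1.03 log2 CPM with DiNP 20, against 1.41, 1.26 and 0.33 log2 CPM in controls, so that both groups were near the filter on low values.

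A pair of predicted protein-coding genes from the same region of chromosome 2 was also lower. Gm14296 (chromosome 2, 176892509 to 176927813) had 4.10, 3.40 and 3.43 log2 CPM with DiNP 20, against 4.52, 4.15 and 4.73 log2 CPM in controls. 2210418O10Rik (chromosome 2, 176226565 to 176261872) had 3.53, 2.80 and 2.87 log2 CPM with DiNP 20, against 4.03, 3.64 and 4.06 log2 CPM in controls. DiNP 20 replicate 1 was the nearest to the controls in both. This region is known to hold many near-identical gene copies, so the level of any 1 of them is uncertain. The remaining lower genes of smallest p were the pseudogene Gm46386, the long noncoding RNA Gm26760 and Phf21b, a PHD finger protein, whose differences were -1.59 ± 0.38, -1.62 ± 0.54 and -0.77 ± 0.27 log2 (SE, n = 3 each).

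**Figure D2:**
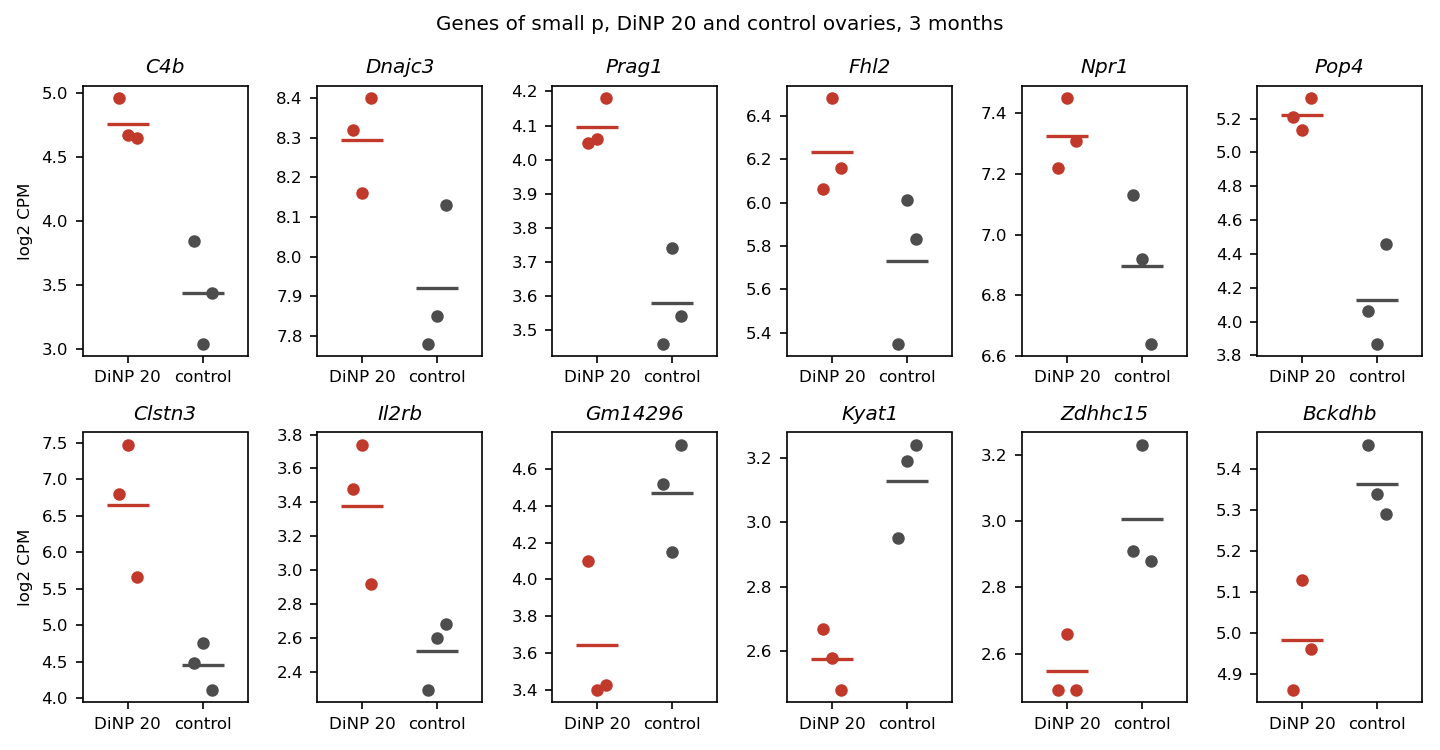
Levels of 12 genes in log2 CPM for each library of DiNP 20 (red, left) and control (grey, right) ovaries at 3 months; each point is a library, each bar a group mean over 3 libraries, and each panel has its own axis, which does not start at 0. The groups do not overlap in any panel, as in 438 genes higher and 456 genes lower of 14740, and none of these genes passed the test.

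Ranked by size rather than by p, the differences among well expressed genes with no overlap were led by Clstn3 (Entrez 232370, chromosome 6), a calsyntenin. It had 6.80, 7.47 and 5.66 log2 CPM with DiNP 20, against 4.48, 4.76 and 4.11 log2 CPM in controls, a difference of 2.19 ± 0.79 log2 (SE, n = 3 each, limma adjusted p = 1), with a 95% interval of 0.56 to 3.82. DiNP 20 replicate 3 was the lowest of its group and still 0.90 log2 above the top control. The highest library of each other treated group at 3 months lay within the DiNP 20 range. These were at 6.41 log2 CPM with DiNP 100, 6.48 log2 CPM with DEHP 20 and 6.65 log2 CPM with DEHP 200. The next in size were interferon-inducible GTPases and complement. Iigp1, which acts on the vacuoles of intracellular pathogens, had 6.83, 5.19 and 5.04 log2 CPM with DiNP 20, against 3.91, 3.80 and 4.73 log2 CPM in controls. Igtp, another immunity-related GTPase, had 5.84, 4.34 and 4.02 log2 CPM with DiNP 20, against 3.88, 3.08 and 3.86 log2 CPM in controls. In both genes DiNP 20 replicate 1 was far above the other DiNP 20 libraries, which lay just above the controls. Irgm2 and Ifi47, GTPases of the same family, were chosen after their values were seen and showed the same order: Irgm2 had 6.56, 5.36 and 5.07 log2 CPM with DiNP 20, against 4.65, 4.33 and 4.94 log2 CPM in controls. Ifi47 had 5.28, 4.08 and 3.78 log2 CPM with DiNP 20, against 3.49, 3.14 and 3.55 log2 CPM in controls.

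On the lower side the same ranking was led by Gm11007, at 3.26, 2.72 and 1.78 log2 CPM with DiNP 20, against 3.83, 3.71 and 5.03 log2 CPM in controls. Ces2a, a carboxylesterase of the family that hydrolyses ester drugs, had 3.90, 5.07 and 4.57 log2 CPM with DiNP 20, against 5.41, 6.04 and 5.51 log2 CPM in controls. Its spread over the series was wide, so that the difference of -1.14 log2 had a standard error of 1.80 log2 and a 95% interval of -4.87 to 2.59. Grem1, an antagonist of bone morphogenetic proteins made by granulosa and cumulus cells, had 2.84, 3.97 and 3.82 log2 CPM with DiNP 20, against 4.86, 4.32 and 4.33 log2 CPM in controls. At 3 months Grem1 was at 2.95, 3.36 and 2.87 log2 CPM with DiNP 100, and at 4.72, 3.59 and 2.84 log2 CPM with DEHP 20. With DEHP 200 it was at 3.55, 4.26 and 2.52 log2 CPM, so a level below these controls is not particular to DiNP 20. The largest fitted difference of all, singled out after its value was seen, was that of Sectm1b, a secreted and transmembrane protein. It had 9.86, 9.84 and 8.20 log2 CPM with DiNP 20, against 1.67, 9.39 and 0.07 log2 CPM in controls. Control replicate 2 lay among the DiNP 20 libraries and the other controls were below 2 log2 CPM, so the groups overlapped and the difference of 5.59 ± 2.53 log2 (SE, n = 3 each) rests on single libraries.

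Genes were next described in 35 lists of pathways and cell types. No member of any list passed the test, as none of all genes did. Only counts and medians are given, beside the 50.3% of genes above 0 and the median of 0.0011 log2 over all genes; 24 of the 35 list medians lay between -0.15 and 0.15 log2. In 5 lists every tested member was above 0: unfolded protein response, major histocompatibility, smooth muscle, erythrocyte, and T, B and NK cell markers, the last with 2 members left. The mean level of a list was higher in all 3 DiNP 20 libraries than in all 3 controls in 1 of 35 lists, interferon response. It was lower in all 3 in 0 lists. Of single genes 2.97% stood above all controls and 3.09% below, so that 1 of 35 is near that share.

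**Figure D3:**
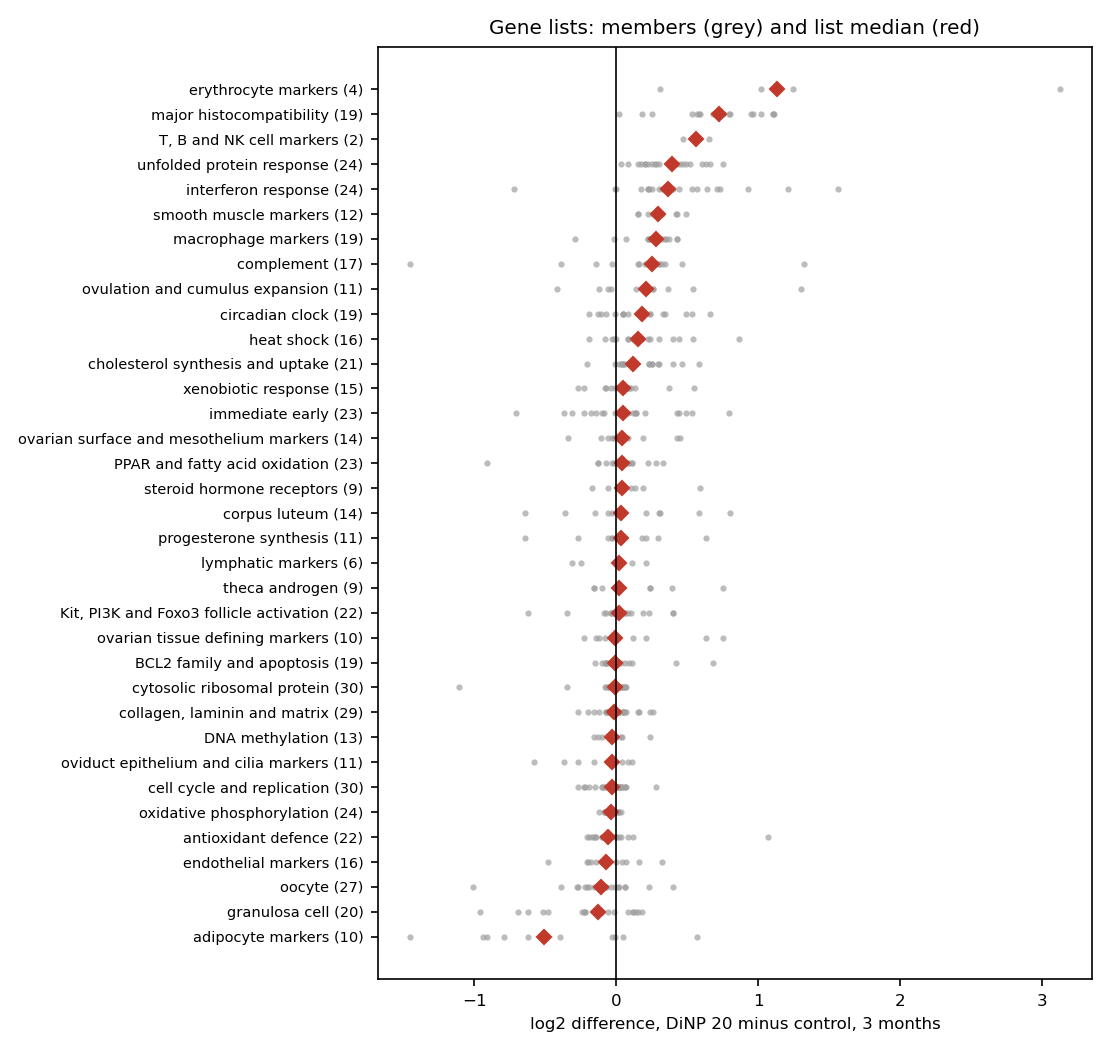
Log2 difference of DiNP 20 minus control at 3 months (x axis) for the members of 35 gene lists (grey points, number tested in brackets) and the median of each list (red diamonds). Medians above 0.25 log2 occur in 7 lists, led by erythrocyte and major histocompatibility genes, and a median below -0.25 log2 occurs in 1, adipocyte markers.

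The unfolded protein response is the programme by which a cell makes more chaperones, folding enzymes and degradation factors when unfolded proteins build up in the endoplasmic reticulum. It is driven by the sensors PERK, IRE1 and ATF6, and secretory tissues use it constantly. All 24 members tested were above 0, with a median of 0.39 log2, and 4 of 24 had an unadjusted p under 0.05 against 1.52% of all genes. In 7 of 24, all 3 DiNP 20 libraries were above all 3 controls, against 2.97% of all genes. The members are measured in the same libraries and share their regulators, so 24 members are not 24 observations.

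Chaperones differed by up to 0.60 log2. Hspa5, the central chaperone of the endoplasmic reticulum (BiP), had 10.80, 10.43 and 11.44 log2 CPM with DiNP 20, against 10.24, 10.58 and 10.05 log2 CPM in controls, a difference of 0.60 ± 0.26 log2 (SE, n = 3 each, limma adjusted p = 1). Hsp90b1, its partner GRP94, had 10.60, 10.53 and 11.35 log2 CPM with DiNP 20, against 10.37, 10.42 and 10.13 log2 CPM in controls. DiNP 20 replicate 3 was the highest library in both genes, and in Hspa5 control replicate 2 lay above DiNP 20 replicate 2. Hyou1, a nucleotide exchange factor for Hspa5, had 8.70, 8.62 and 9.26 log2 CPM with DiNP 20, against 8.52, 8.47 and 8.23 log2 CPM in controls. Canx, the lectin chaperone calnexin, had 9.49, 9.42 and 9.51 log2 CPM with DiNP 20, against 9.32, 9.12 and 9.31 log2 CPM in controls, which gave a small difference of 0.22 ± 0.10 log2 (SE, n = 3 each, limma adjusted p = 1). Calr, its soluble relative calreticulin, differed by 0.20 ± 0.19 log2 (SE), also with no overlap.

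Folding enzymes and luminal partners were higher by similar amounts. Sdf2l1, a cofactor of the Hspa5 cycle, had 5.66, 5.21 and 6.15 log2 CPM with DiNP 20, against 4.75, 5.46 and 4.83 log2 CPM in controls, a difference of 0.66 ± 0.32 log2 (SE, n = 3 each, limma adjusted p = 1). Pdia6, a protein disulfide isomerase, had 8.56, 8.66 and 8.89 log2 CPM with DiNP 20, against 8.45, 8.37 and 8.05 log2 CPM in controls. Pdia6 and Pdia3 had no overlap between groups, and Pdia4 did. Manf and Creld2, secreted factors of this response, differed by 0.43 ± 0.25 and 0.63 ± 0.34 log2 (SE, n = 3 each). The transcription factors of the response differed less, or less evenly. Atf4, the factor translated when PERK is active, differed by 0.03 ± 0.21 log2 (SE), and Xbp1, whose messenger RNA is spliced by IRE1, by 0.27 ± 0.17 log2 (SE). Ddit3 (CHOP) had 4.88, 4.56 and 6.48 log2 CPM with DiNP 20, against 4.42, 5.68 and 4.40 log2 CPM in controls, so that its difference of 0.47 ± 0.52 log2 (SE) rests on DiNP 20 replicate 3. Without DiNP 20 replicate 3 the list median was 0.19 log2 with 19 of 24 members above 0, and it was also 0.19 log2 with array weights.

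Promoters of some members of the list carry a known element of this response, and some of these are printed here. The element is written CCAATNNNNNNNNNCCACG and was looked for on both strands in the 250 bases before each start that the RefSeq promoter table (GRCm38.p6) gives for a gene. Of 22 members with a promoter in the table, 7 held it (31.8%): Hspa5, Hsp90b1, Dnajc3, Pdia6, Calr, Canx and Creld2. It was held by 22 of the 11547 tested genes with a promoter there (0.191%), and by 37 of all 32851 windows (0.113%). A match is a description of the letters and does not show binding. The list was chosen as genes of this response, from which the element is known, and promoter letters do not change with treatment. The higher share among its members therefore does not bear on what the treatment did. The Hspa5 window is chr2:34771840-34772089 (plus strand), that of Hsp90b1 is chr10:86705445-86705694 (minus strand, with 2 matches) and that of Dnajc3 is chr14:118937682-118937931 (plus strand). Each window is printed 5′ to 3′ along the gene, with the element in capitals.
Hspa5: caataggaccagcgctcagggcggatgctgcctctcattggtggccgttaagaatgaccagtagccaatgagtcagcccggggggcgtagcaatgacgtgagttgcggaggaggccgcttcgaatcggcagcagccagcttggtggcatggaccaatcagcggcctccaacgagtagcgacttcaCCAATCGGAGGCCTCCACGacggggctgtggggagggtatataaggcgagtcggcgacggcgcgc
Hsp90b1: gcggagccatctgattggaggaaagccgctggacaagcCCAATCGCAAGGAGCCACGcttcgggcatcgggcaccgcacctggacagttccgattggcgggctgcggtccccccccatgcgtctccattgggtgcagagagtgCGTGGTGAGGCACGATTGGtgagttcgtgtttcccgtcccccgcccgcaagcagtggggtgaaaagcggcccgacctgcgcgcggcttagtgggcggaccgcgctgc
Dnajc3: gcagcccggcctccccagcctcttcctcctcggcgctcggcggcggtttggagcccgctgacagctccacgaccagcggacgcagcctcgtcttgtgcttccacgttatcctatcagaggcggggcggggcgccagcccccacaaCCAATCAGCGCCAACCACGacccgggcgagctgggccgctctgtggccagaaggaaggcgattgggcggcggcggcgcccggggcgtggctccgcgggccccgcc

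Most of these genes lay below their controls directly after dosing. At 0 months the unfolded protein response list had a median of -0.30 log2, and 3 of 24 members were above 0. The mean level of the list was 6.95, 6.92 and 6.94 log2 CPM with DiNP 20 at 0 months, against 7.09, 7.41 and 7.22 log2 CPM in 0-month controls. All 3 DiNP 20 libraries were below all 3 controls there. Set against the same controls, the other treated groups at 0 months had means of 7.04, 7.0 and 7.02 log2 CPM with DiNP 100, 6.95, 6.57 and 6.96 log2 CPM with DEHP 20, and 6.67, 7.13 and 6.63 log2 CPM with DEHP 200, so that 1 of these 9 libraries, DEHP 200 replicate 2, reached the range of the controls. At 3 months the mean level was 7.28, 7.03 and 7.79 log2 CPM with DiNP 20, against 6.75, 7.20 and 7.05 log2 CPM in controls, with overlap. Against the same 3-month controls, 21 of 24 members were above 0 with DiNP 100 (median 0.18 log2), 21 of 24 with DEHP 20 (0.11 log2) and 23 of 24 with DEHP 200 (0.22 log2), so neither side is particular to DiNP 20. The difference between the times was tested gene by gene in the same limma fit: 0 of 14740 genes (0%) passed, with a lowest adjusted p of 1, and 219 genes (1.49%) had an unadjusted p under 0.05. Of the 24 members 13 were among these, and all 24 had a more positive difference at 3 months.

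Sdf2l1 had the smallest p of the list for this change, with differences from control of 0.66 log2 at 3 months and -0.80 log2 at 0 months, which are 1.46 log2 apart (limma adjusted p = 1). For Hsp90b1 the differences were 0.52 log2 at 3 months and -0.73 log2 at 0 months (limma adjusted p = 1), and for Hspa5 they were 0.60 log2 at 3 months and -0.46 log2 at 0 months (limma adjusted p = 1). Trib3 and Chac1, targets of ATF4, and Edem1, which helps misfolded glycoproteins to degradation, were above 0 at both times, with Chac1 at 0.75 log2 at 3 months and 0.67 log2 at 0 months. The mean level of the cytosolic heat shock list was 8.13, 7.08 and 7.65 log2 CPM with DiNP 20 at 3 months, against 7.50, 7.33 and 7.44 log2 CPM in controls. At 0 months it was 7.10, 7.48 and 7.46 log2 CPM with DiNP 20, against 7.62, 7.88 and 7.53 log2 CPM in 0-month controls, where all DiNP 20 libraries were below all controls. The 3-month side rests on DiNP 20 replicate 1: the list median was 0.15 log2 with 11 of 16 members above 0, and without that library it was 0.01 log2 with 8 of 16 above 0. Hspb1, a small heat shock protein, was the member of smallest p at 3 months, with 5.71, 5.70 and 5.35 log2 CPM with DiNP 20, against 4.45, 4.83 and 4.89 log2 CPM in controls.

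**Figure D4:**
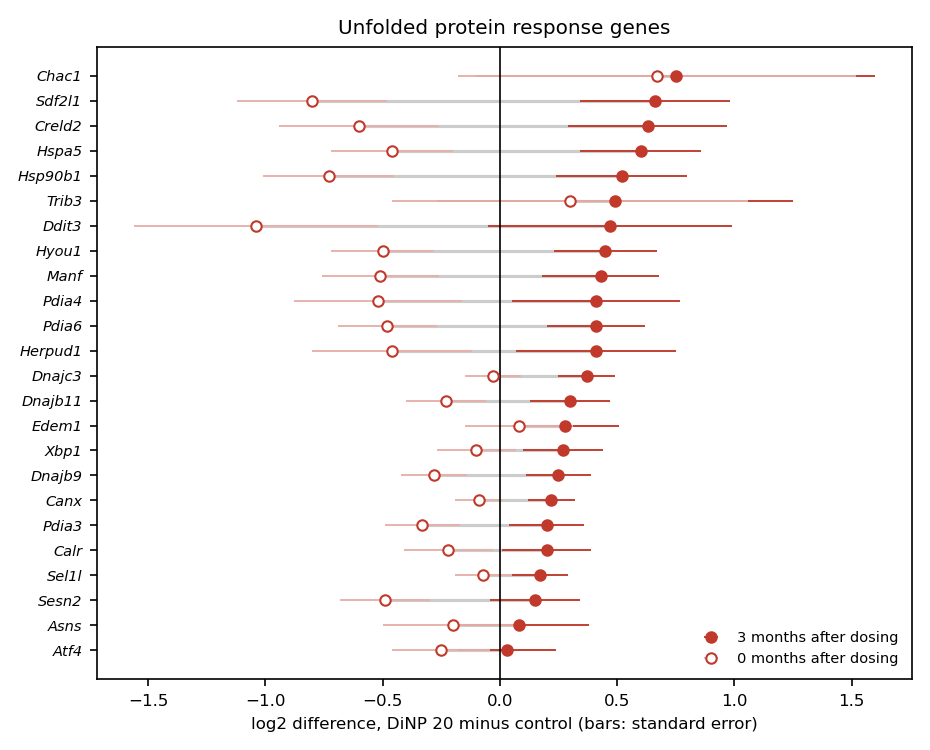
Log2 difference of DiNP 20 minus control (x axis) for 24 unfolded protein response genes at 3 months (filled) and 0 months (open) after dosing; bars are standard errors from the limma fit, 3 libraries a group. All 24 filled points lie above 0 and 21 of the open points lie below 0, with Chac1, Trib3 and Edem1 above it.

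Over all genes, the change between the times had its smallest p in Gm14296, 1 of the predicted genes of chromosome 2 named above. It differed from control by -0.82 log2 at 3 months and by 0.63 log2 at 0 months, which are -1.45 ± 0.32 log2 apart (SE, limma adjusted p = 1). It had 4.22, 4.65 and 4.62 log2 CPM with DiNP 20 at 0 months, against 3.66, 3.94 and 4.0 log2 CPM in 0-month controls, so that both times had no overlap, in opposite order. 2210418O10Rik had the same sign, at -1.31 ± 0.40 log2 (SE), as had Stk36, a kinase needed for motile cilia, at -0.70 ± 0.22 log2 (SE). Npr1 was the leading gene of the other direction, at 0.69 ± 0.19 log2 (SE, limma adjusted p = 1). It had 6.81, 6.41 and 6.70 log2 CPM with DiNP 20 at 0 months, against 6.84, 6.76 and 7.10 log2 CPM in 0-month controls, whereas it was the higher with DiNP 20 at 3 months. Tspyl2, a nucleosome assembly protein of the X chromosome, had the same sign, at 0.44 ± 0.13 log2 (SE).

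Genes of antigen presentation, the major histocompatibility list, formed the list with the largest median among those with more than 4 members. Class I molecules, with B2m as their light chain, show peptides from inside the cell, and class II molecules of macrophages, dendritic cells and B cells show those taken up from outside. All 19 members were above 0, with a median of 0.72 log2, and 2 of 19 had an unadjusted p under 0.05, B2m and H2-T23, against 1.52% of all genes. Against the same controls all 19 members were also above 0 with DiNP 100, with a median of 0.49 log2, whereas 7 of 19 were above 0 with DEHP 20 and 3 of 19 with DEHP 200. B2m had 10.04, 9.0 and 8.42 log2 CPM with DiNP 20, against 8.01, 7.87 and 8.70 log2 CPM in controls, a difference of 0.95 ± 0.46 log2 (SE, n = 3 each, limma adjusted p = 1). H2-T23, a nonclassical class I gene, had 7.17, 6.80 and 6.54 log2 CPM with DiNP 20, against 6.11, 6.34 and 6.47 log2 CPM in controls. The order of the DiNP 20 libraries was the same in both, with replicate 1 the highest. Nlrc5, the transactivator of class I genes, had 4.75, 3.79 and 3.58 log2 CPM with DiNP 20, against 3.03, 2.66 and 3.12 log2 CPM in controls, with no overlap. Ciita, the transactivator of class II genes, had 4.62, 3.09 and 3.08 log2 CPM with DiNP 20, against 2.10, 2.29 and 3.09 log2 CPM in controls.

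The list mean of antigen presentation was 6.46, 5.77 and 5.15 log2 CPM with DiNP 20, against 4.96, 4.89 and 5.41 log2 CPM in controls. Control replicate 3 lay above DiNP 20 replicate 3. Leaving out 1 library at a time moved the list median between 0.29 and 1.03 log2, the lowest without DiNP 20 replicate 1. The other treated groups at 3 months also spread widely. Their list means were 6.6, 4.72 and 5.53 log2 CPM with DiNP 100, 4.56, 6.04 and 4.05 with DEHP 20, and 4.96, 4.99 and 4.68 with DEHP 200. DiNP 100 replicate 2 was below all controls, and DEHP 20 replicate 2 above them. At 0 months 13 of 19 members were above 0 with DiNP 20, with a median of 0.08 log2. H2-Eb1, a class II beta chain, overlapped widely, at 2.33, 5.92 and 6.55 log2 CPM with DiNP 20, against 5.11, 5.12 and 1.51 log2 CPM in controls. Class I and class II genes are highly variable between mice and near-identical to each other, so reads may be shared among them and single levels are uncertain.

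Markers of macrophages, which express many of these genes, stood with them. Of 19 macrophage markers 17 were above 0, with a median of 0.28 log2. An unadjusted p under 0.05 was reached by 0 of 19, against 1.52% of all genes. Without DiNP 20 replicate 1, 9 of 19 markers were above 0, with a median of -0.04 log2. Their mean level was 4.94, 4.09 and 4.14 log2 CPM with DiNP 20, against 4.05, 4.08 and 4.30 log2 CPM in controls. DiNP 20 replicate 1 was the high library, as for antigen presentation, and the other DiNP 20 libraries lay among the controls. Against the same controls, 17 of 19 markers were also above 0 with DiNP 100 (median 0.28 log2) and with DEHP 20 (0.12 log2). With DEHP 200 the count was 4 of 19 (-0.16 log2). Csf1r, the receptor that macrophages need to survive, had 6.47, 5.42 and 5.45 log2 CPM with DiNP 20, against 5.34, 5.57 and 5.58 log2 CPM in controls. Lymphocyte markers were low: 2 of 15 could be tested, Cd4 and Klrb1c, while Cd3e, which defines T cells, was under the filter. Cd4 had 1.95, 1.30 and 1.33 log2 CPM with DiNP 20, against 0.88, 0.34 and 1.94 log2 CPM in controls. The part of macrophage content in the antigen presentation values was not tested.

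Interferon-stimulated genes, which cells switch on as an antiviral defence, were the 1 list of 35 whose mean separated the groups. As a share of lists this is near the 2.97% of single genes above all controls. The list mean was 3.48, 3.12 and 3.00 log2 CPM with DiNP 20, against 2.75, 2.69 and 2.89 log2 CPM in controls. Of 24 members 21 were above 0, with a median of 0.36 log2, and 7 had all DiNP 20 libraries above all controls, against 2.97% of all genes. Ifit3, an antiviral protein that binds with its relative IFIT1, had 2.69, 2.70 and 2.52 log2 CPM with DiNP 20, against 1.15, 0.91 and 1.15 log2 CPM in controls. The groups were 1.37 log2 apart and tight, and the difference was 1.56 ± 0.55 log2 (SE, n = 3 each, limma adjusted p = 1), or 2.95-fold. It was the 1 member of 24 with an unadjusted p under 0.05, against 1.52% of all genes.

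Gbp3, a guanylate-binding protein, had 5.08, 4.10 and 3.99 log2 CPM with DiNP 20, against 3.70, 3.57 and 3.70 log2 CPM in controls. Cxcl10, a chemokine for T cells, had 1.86, 1.20 and 1.38 log2 CPM with DiNP 20, against 1.08, 0.34 and 0.21 log2 CPM in controls. Zbp1, a sensor of Z-form nucleic acids, had 2.06, 0.99 and 1.05 log2 CPM with DiNP 20, against 0.51, -0.26 and 0.21 log2 CPM in controls. In all 3 genes the lowest DiNP 20 library was above the highest control. Rsad2 (viperin) was below, at 0.87, 0.77 and 0.56 log2 CPM with DiNP 20, against 1.08, 1.03 and 2.24 log2 CPM in controls, a difference of -0.72 ± 0.42 log2 (SE).

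The interferon list stood above its controls at 0 months too, with a mean of 2.21, 2.57 and 2.58 log2 CPM with DiNP 20, against 2.19, 2.05 and 1.76 log2 CPM in 0-month controls, again with no overlap. The same 3 controls were also below the other treated groups at 0 months, whose list means were 2.66, 2.71 and 2.61 log2 CPM with DiNP 100, 3.31, 2.22 and 3.05 log2 CPM with DEHP 20, and 2.26, 2.86 and 2.70 log2 CPM with DEHP 200. A gap to these controls is therefore not particular to DiNP 20. Its median difference was 0.36 log2 at 3 months and 0.41 log2 at 0 months, and these times share no library. For Ifit3 the difference was 0.68 log2 at 0 months, and the change between times was 0.88 log2 (limma adjusted p = 1). At 3 months the other treated groups spread as widely as the gap in question. The list mean was 3.92, 2.54 and 3.22 log2 CPM with DiNP 100, and 2.46, 3.76 and 2.75 log2 CPM with DEHP 20. With DEHP 200 it was 3.25, 2.35 and 2.97 log2 CPM. Against the same 3-month controls, 22 of 24 members were above 0 with DiNP 100 (median 0.41 log2). The count was 20 of 24 with DEHP 20 (0.22 log2) and 16 of 24 with DEHP 200 (0.09 log2). Members above these controls are therefore not particular to DiNP 20 either.

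Letters of the interferon-stimulated response element are shown for Ifit3 and Gbp3, which had no overlap between groups. The element was searched as GAAA, any 2 bases and GAAA again, on both strands of the same 250-base windows. It was held by 11 of the 18 list members with a promoter in the table (61.1%), against 3.13% of tested genes with a promoter in the table and 2.98% of all windows. The list was chosen as interferon-stimulated genes, for which the element is named. Its higher share among them therefore does not bear on what the treatment did. The element has 2 matches in Ifit3 at chr19:34583279-34583528 (plus strand) and 2 overlapping matches in Gbp3 at chr3:142559794-142560043 (plus strand). The starts in the table are not always the outermost ones: the Ifit3 window lies inside the annotated span of the gene, which begins at base 34583119, and the end of the Gbp3 window passes base 142560016, where the span of Gbp3 begins. Capitals mark the element, whose matches lie on the opposite strand to the one printed.
Ifit3: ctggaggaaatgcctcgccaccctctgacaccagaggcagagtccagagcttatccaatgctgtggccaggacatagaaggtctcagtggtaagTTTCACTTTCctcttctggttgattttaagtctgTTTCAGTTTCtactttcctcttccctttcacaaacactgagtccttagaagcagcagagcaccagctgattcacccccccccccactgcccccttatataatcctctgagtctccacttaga
Gbp3: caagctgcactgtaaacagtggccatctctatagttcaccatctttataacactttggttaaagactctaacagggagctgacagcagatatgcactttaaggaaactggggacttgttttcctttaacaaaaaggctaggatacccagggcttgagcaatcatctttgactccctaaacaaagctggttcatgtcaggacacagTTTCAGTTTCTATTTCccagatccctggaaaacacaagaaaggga

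Complement genes were above 0 in 13 of 17 cases, with a median of 0.25 log2 that was 0.09 log2 without DiNP 20 replicate 1. Against the same controls, 12 of 17 were above 0 with DiNP 100, 14 of 17 with DEHP 20 and 8 of 17 with DEHP 200. With DiNP 20, 2 of 17 had an unadjusted p under 0.05, against 1.52% of all genes. Besides C4b, the other was C1ra, a protease of the first complement complex, at 6.77, 6.72 and 6.59 log2 CPM with DiNP 20, against 6.38, 6.33 and 6.48 log2 CPM in controls. Its partner C1s1 had 6.99, 7.14 and 7.17 log2 CPM with DiNP 20, against 6.87, 6.93 and 6.76 log2 CPM in controls. Both were on the other side at 0 months, by -0.19 and -0.44 log2, and their changes between times were 0.49 and 0.68 log2 (limma adjusted p = 1 for both). C3, the hub of the cascade, overlapped, with a difference of -0.14 ± 0.53 log2 (SE).

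**Figure D5:**
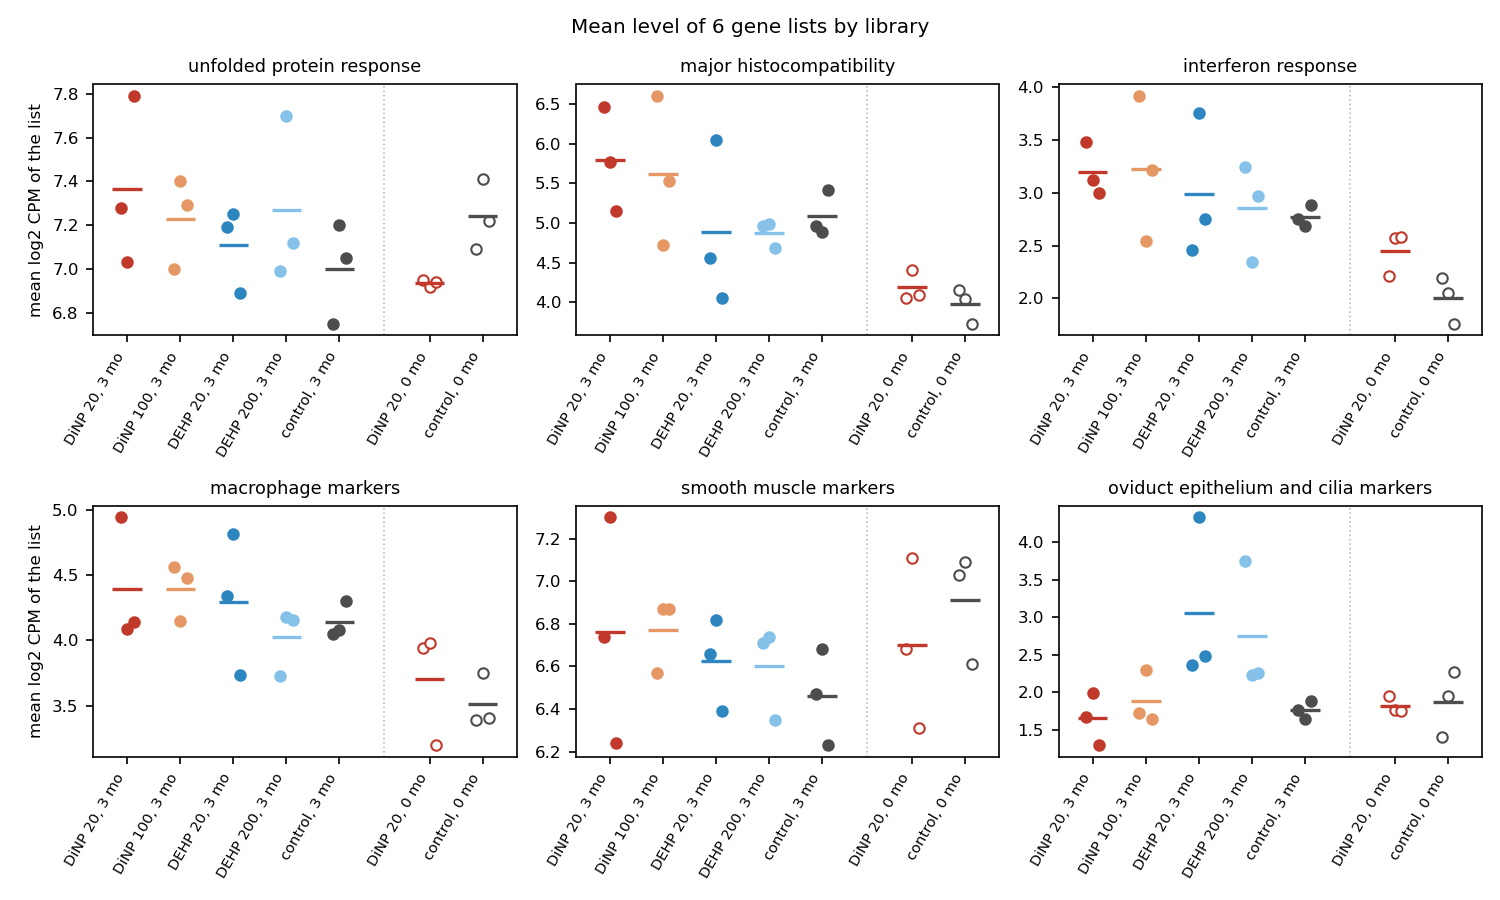
Mean log2 CPM of 6 gene lists (y axis, own scale for each panel, not from 0) for each library, with a bar at the group mean: DiNP 20, DiNP 100, DEHP 20, DEHP 200 and control at 3 months (filled) and DiNP 20 and control at 0 months (open). Interferon response is the list in which the 3 DiNP 20 libraries clear the 3 controls at 3 months, and the cilia markers are highest in a DEHP 20 library at 4.33 log2 CPM.

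Steroid hormone synthesis, a function often asked about for phthalates, showed no difference beyond its spread, and all 16 reproductive genes of a chosen panel overlapped between the groups. Of all genes 2.97% had no overlap above the controls and 3.09% below, so that 0 of 16 is near the background. Star, which carries cholesterol into mitochondria, had 12.92, 12.80 and 11.63 log2 CPM with DiNP 20, against 10.18, 12.02 and 13.27 log2 CPM in controls. The control libraries alone spanned 3.09 log2, and the difference was 0.63 ± 1.36 log2 (SE, n = 3 each, limma adjusted p = 1). Cyp11a1, which cleaves the cholesterol side chain, had 13.56, 13.40 and 12.85 log2 CPM with DiNP 20, against 12.21, 13.25 and 13.70 log2 CPM in controls. Hsd3b1, which completes progesterone, differed by -0.06 ± 0.34 log2 (SE), with a 95% interval of -0.78 to 0.65. Cyp17a1, the theca cell enzyme of androgen synthesis, had 9.04, 8.54 and 9.78 log2 CPM with DiNP 20, against 9.47, 8.52 and 7.12 log2 CPM in controls. Cyp19a1, the aromatase, had 2.88, 4.70 and 5.38 log2 CPM with DiNP 20, against 4.25, 5.43 and 5.35 log2 CPM in controls. The labels do not give the stage of the cycle at collection.

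Hormone receptors and growth factors of the follicle overlapped as well. Differences were -0.14 ± 0.34 log2 for Fshr, the follicle-stimulating hormone receptor, -0.64 ± 0.72 log2 for Lhcgr, the luteinizing hormone receptor, 0.04 ± 0.23 log2 for Esr1 and -0.17 ± 0.42 log2 for Esr2, the estrogen receptors (SE, n = 3 each). Amh, which granulosa cells of growing follicles make and which restrains the reserve, had 6.41, 6.78 and 6.75 log2 CPM with DiNP 20, against 7.51, 6.66 and 5.82 log2 CPM in controls. The groups had nearly the same mean, 6.65 ± 0.20 log2 CPM with DiNP 20 and 6.66 ± 0.85 log2 CPM in controls (SD, n = 3 each). Inhba, an activin subunit, and Hsd17b1, which makes estradiol, differed by -0.24 ± 0.42 and -0.22 ± 0.32 log2 (SE). Kitl, the granulosa signal that wakes oocytes, had 6.61, 4.93 and 4.95 log2 CPM with DiNP 20, against 4.45, 6.54 and 7.35 log2 CPM in controls, with wide overlap.

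Oocyte genes were below 0 in 21 of 27 cases with a small median, -0.11 log2. Gdf9, which oocytes secrete to granulosa cells, had 5.51, 5.59 and 6.34 log2 CPM with DiNP 20, against 6.61, 5.95 and 5.25 log2 CPM in controls, and Bmp15, its partner, differed by -0.19 ± 0.39 log2 (SE). Omt2a, an oocyte transcript, was the 1 member of 27 without overlap, a share close to the 3.09% of all genes whose DiNP 20 libraries were all below the controls, at -0.29, 0.65 and 0.96 log2 CPM with DiNP 20, against 1.86, 1.36 and 1.12 log2 CPM in controls. The list median ran from -0.43 to 0.24 log2 when 1 library was left out, so its sign rests on single libraries. It was 0.24 log2 without control replicate 1, 0.03 log2 without DiNP 20 replicate 1 and 0.04 log2 without DiNP 20 replicate 2. Granulosa genes were above 0 in 6 of 20 cases, with a median of -0.13 log2, led by Grem1. That sign rests on single libraries too: the median ran from -0.36 to 0.05 log2 when 1 was left out, with 12 of 20 above 0 without control replicate 1 and 11 of 20, at 0.02 log2, without DiNP 20 replicate 1. Against the same controls, 5 of 20 granulosa genes were above 0 with DiNP 100, 7 of 20 with DEHP 20 and 10 of 20 with DEHP 200.

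Several other pathways had medians near 0. The median was 0.04 log2 for 23 genes of PPAR and fatty acid oxidation, which phthalate monoesters engage in liver, 0.05 log2 for 15 xenobiotic genes, -0.01 log2 for 19 genes of the BCL2 family and apoptosis, -0.03 log2 for 13 DNA methylation genes, -0.03 log2 for 30 cell cycle genes, -0.02 log2 for 29 matrix genes and -0.04 log2 for 24 genes of oxidative phosphorylation. The cell cycle value rests on single controls: it was -0.28 log2 with 3 of 30 above 0 without control replicate 3, and 0.14 log2 with 24 of 30 above 0 without control replicate 1. Genes of cholesterol synthesis and uptake were above 0 in 19 of 21 cases with a median of 0.12 log2. That median was 0.48 log2 with array weights and ran from -0.12 log2 without DiNP 20 replicate 1 to 0.42 log2 without control replicate 3. Against the same controls, 21 of 21 were above 0 with DiNP 100, with a median of 0.45 log2. The count was 19 of 21 with DEHP 20 (0.44 log2) and 18 of 21 with DEHP 200 (0.25 log2). Circadian clock genes were above 0 in 14 of 19 cases with a median of 0.18 log2, which was 0.03 log2 without control replicate 1, and 2 of 19 had an unadjusted p under 0.05, against 1.52% of all genes. Single members still stood out. Hmox1, heme oxygenase 1, had 7.18, 7.45 and 7.80 log2 CPM with DiNP 20, against 5.59, 6.93 and 6.70 log2 CPM in controls, a difference of 1.07 ± 0.42 log2 (SE, n = 3 each, limma adjusted p = 1), while 15 of the 22 antioxidant genes were below 0. Por, the reductase that feeds electrons to cytochrome P450 enzymes, had 7.15, 7.34 and 7.10 log2 CPM with DiNP 20, against 6.77, 6.67 and 7.04 log2 CPM in controls. Per2, a clock repressor, had 5.12, 5.05 and 4.86 log2 CPM with DiNP 20, against 4.13, 4.45 and 4.46 log2 CPM in controls (limma adjusted p = 1). The labels give no hour of collection.

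Markers of blood, fat and muscle also varied. Hba-a1, a hemoglobin chain, had 5.92, 7.90 and 5.51 log2 CPM with DiNP 20, against 4.26, 6.54 and 5.49 log2 CPM in controls. Adipoq, which fat cells secrete, had -0.27, 3.10 and -1.21 log2 CPM with DiNP 20, against 1.52, 1.41 and 1.5 log2 CPM in controls. DiNP 20 replicate 2 was the highest library for both. The erythrocyte median of 1.13 log2, over 4 members, was 0.03 log2 with array weights and 0.41 log2 without control replicate 1. Against the same controls it was 0.73 log2 with DiNP 100, 0.66 log2 with DEHP 20 and 1.21 log2 with DEHP 200. The adipocyte median of -0.51 log2, over 10 members, was -0.08 log2 without DiNP 20 replicate 3 and -1.16 log2 without DiNP 20 replicate 2. Against the same controls the adipocyte median was -0.47 log2 with DiNP 100, -0.18 log2 with DEHP 20 and -0.13 log2 with DEHP 200. Smooth muscle markers were above 0 in 12 of 12 cases, with a median of 0.29 log2. Their mean level was 6.74, 7.30 and 6.24 log2 CPM with DiNP 20, against 6.47, 6.68 and 6.23 log2 CPM in controls, with DiNP 20 replicate 2 the highest and overlap among the rest. Without that library 8 of 12 were above 0, with a median of 0.03 log2. Against the same controls, 12 of 12 were above 0 with DiNP 100, with a median of 0.36 log2. The count was 11 of 12 with DEHP 20 (0.12 log2) and 10 of 12 with DEHP 200 (0.16 log2), so it is not particular to DiNP 20. Myh11, the smooth muscle myosin, differed by 0.31 ± 0.24 log2 (SE). The part of these cells in other results was not tested.

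DEHP and DiNP were compared at their 1 matched dose, 20 ug/kg/day, at 3 months, which makes 1 pair of compounds and uses no control library. Of 14740 genes 0 (0%) passed in limma, the lowest adjusted p was 0.56, and 427 genes (2.9%) had an unadjusted p under 0.05, 150 higher and 277 lower with DiNP 20. The 95% interval of the difference lay within 2-fold for 81.3% of genes. These values do not show that the compounds act alike. With array weights, which did not converge, 3 genes passed: Armc8, Fank1 and Flrt3.

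The genes of smallest p were Armc8 and Fank1. Armc8, a subunit of the CTLH ubiquitin ligase, had 5.63, 5.64 and 5.49 log2 CPM with DiNP 20, against 4.77, 4.97 and 5.21 log2 CPM with DEHP 20, a difference of 0.60 ± 0.12 log2 (SE, n = 3 each, 95% interval 0.35 to 0.85, limma adjusted p = 0.56). Zfp703, a zinc finger repressor, had 6.24, 6.44 and 6.27 log2 CPM with DiNP 20, against 5.92, 5.92 and 5.89 log2 CPM with DEHP 20. Control libraries lay between them in Armc8, at 5.44, 5.37 and 5.40 log2 CPM, and in Zfp703, at 6.13, 6.06 and 5.98 log2 CPM. H2-T-ps, a class I gene named as a pseudogene but annotated as protein-coding, had 1.96, 1.55 and 2.44 log2 CPM with DiNP 20, against 0.26, 0.83 and -0.15 log2 CPM with DEHP 20.

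Genes lower with DiNP 20 included some of cilia. Fank1, of testis and ciliated cells, had 0.08, 0.19 and 0.25 log2 CPM with DiNP 20, against 1.10, 2.14 and 2.37 log2 CPM with DEHP 20 (-1.70 ± 0.35 log2, SE, 95% interval -2.43 to -0.97, limma adjusted p = 0.56). Dnah11, a dynein heavy chain of motile cilia, had -0.33, 0.49 and 0.00 log2 CPM with DiNP 20, against 2.06, 3.07 and 1.57 log2 CPM with DEHP 20. Flrt3, an adhesion protein, had 2.22, 2.27 and 2.32 log2 CPM with DiNP 20, against 2.94, 3.74 and 3.98 log2 CPM with DEHP 20. Markers of oviduct epithelium and cilia moved with these genes: 11 of 11 tested were lower with DiNP 20, with a median of -1.04 log2. Of these, 5 of 11 had an unadjusted p under 0.05, against 2.9% of all genes. Set against the 3-month controls, the median was -0.03 log2 with DiNP 20, with 3 of 11 above 0. With DEHP 20 it was 0.94 log2 (11 of 11), and with DEHP 200 it was 0.83 log2 (10 of 11). The mean level of these markers was 1.67, 1.99 and 1.29 log2 CPM with DiNP 20, against 2.36, 4.33 and 2.48 log2 CPM with DEHP 20. In 3-month controls it was 1.76, 1.64 and 1.88 log2 CPM. Ovgp1, the oviduct glycoprotein, had 0.91, 2.11 and 0.63 log2 CPM with DiNP 20, against 1.73, 6.35 and 5.75 log2 CPM with DEHP 20. In controls Ovgp1 was at 0.36, 1.23 and 2.15 log2 CPM, close to the range of DiNP 20. The part of oviduct tissue in this comparison was not tested. Of the lists described above, antigen presentation was higher with DiNP 20 than with DEHP 20 in 19 of 19 members, with a median of 0.77 log2, where DEHP 20 replicate 2 lay above 2 of the DiNP 20 libraries.

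The 2 doses of DiNP were compared directly, again with no control library. Of 14740 genes 0 (0%) passed in limma with a lowest adjusted p of 0.405, while 1794 genes (12.2%) had an unadjusted p under 0.05, 915 higher and 879 lower with DiNP 20. This count rests on single libraries: without DiNP 100 replicate 2 it was 4151 and 1336 genes passed, and without DiNP 100 replicate 3 it was 277 and 0 passed. Vkorc1l1, a vitamin K epoxide reductase, had 6.42, 6.37 and 6.41 log2 CPM with DiNP 20, against 6.0, 6.18 and 6.07 log2 CPM with DiNP 100. Hipk2, a kinase of the p53 pathway, had 7.82, 7.97 and 7.88 log2 CPM with DiNP 20, against 7.11, 7.51 and 6.56 log2 CPM with DiNP 100. Gm3264 had 1.02, 1.19 and 2.71 log2 CPM with DiNP 20, against -3.34, 0.18 and -2.43 log2 CPM with DiNP 100. On the other side, Gstp1, a glutathione transferase, had 6.73, 7.41 and 7.22 log2 CPM with DiNP 20, against 8.08, 7.79 and 8.75 log2 CPM with DiNP 100, a difference of -1.09 ± 0.25 log2 (SE, n = 3 each, limma adjusted p = 0.405). Morn1 and Pyurf, a partner of complex I assembly, were lower by -0.73 ± 0.16 and -0.40 ± 0.09 log2 (SE). In Hipk2 and Gstp1 the library farthest from DiNP 20 was DiNP 100 replicate 3. The 3-month controls overlapped the DiNP 20 libraries in both genes. They were at 7.89, 7.58 and 7.79 log2 CPM in Hipk2 and at 7.26, 7.44 and 7.47 log2 CPM in Gstp1. In Vkorc1l1 the controls lay between the 2 doses, at 6.27, 6.30 and 6.24 log2 CPM. Genes of oxidative phosphorylation lay below the higher dose in 24 of 24 cases, with a median of -0.31 log2. Of these, 8 of 24 had an unadjusted p under 0.05, against 12.2% of all genes. Their mean level was 7.19, 7.11 and 7.04 log2 CPM with DiNP 20, against 7.34, 7.06 and 7.82 log2 CPM with DiNP 100, so that DiNP 100 replicate 2 lay among the DiNP 20 libraries. In 3-month controls it was 7.05, 7.19 and 7.22 log2 CPM. Against these controls, 24 of 24 genes were above 0 with DiNP 100 (median 0.25 log2) and 4 of 24 with DiNP 20 (-0.04 log2).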

How the data were processed

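Gene-level RNA-seq values of whole ovary were used for 30 libraries in 10 groups of 3. The authors deposited 1 table of log2 CPM for 18022 genes, made with Salmon 0.11.3 and edgeR in R 3.5.2 on GRCm38.p6, with FastQC 0.11.8 for quality, per the submitters' processing notes. Libraries were made with a stranded mRNA kit and read from 1 end, per the labels' protocols. Read counts were not used here; the lowest value of the table is -3.343 log2 CPM, and depth was estimated from the steps between low values, so it is approximate.

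Genes with a mean above 0 log2 CPM over all libraries were fitted with limma 3.58.1 in R 4.3.3 (group means of all 10 groups, trended prior variance, Benjamini-Hochberg adjustment over all genes tested, threshold 0.05), which was tested on simulated data. No pseudocount was added to the deposited log2 values in the fit; a log2 scale with an offset for low genes understates their changes. DiNP 20 was compared with control and DEHP 20 and DiNP 100 at 3 months, and its difference from control at 3 months with that at 0 months. Comparisons with control share the control libraries. Entrez IDs were matched to RefSeq names and positions for 17770 genes (98.6%).

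The members and the gene lists were chosen with earlier results of these data known. Named genes were the 12 of smallest p in each direction, the 5 of largest difference with no overlap and a mean above 3 log2 CPM, the 3 of smallest p in each direction of the other comparisons, a panel of 16 reproductive genes and the leading members of lists; further list members were named after their values were seen. Same-numbered libraries did not deviate together (r = -0.188, -0.0631 and -0.418), so the numbers were not taken as pairs. Alternatives were other filters, 1 CPM added, median centring, fewer libraries in the fit, no trend, library weights, a replicate block and leaving out each library.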

Additional observations from a re-analysis of the deposited data

How the results depend on the processing

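The 0 calls of DiNP 20 against control held under each alternative except weights: array weights gave 788 calls and weights estimated gene by gene gave 3. Against DEHP 20 array weights gave 3 calls; against DiNP 100 the libraries of the contrast alone gave 2, gene-by-gene weights 1, and leaving out 1 library 0 to 1336; for the change between 3 and 0 months array weights gave 4 and leaving out 1 library 0 to 1. The cause was not tested. Of the named-gene differences, 39 passed with array weights, C4b, Ifit3 and B2m among them, 4 with gene-by-gene weights and 6 without DiNP 100 replicate 2. The array weights did not converge, and the gene-by-gene weights were chosen after seeing the data. Both gave 3-month control replicate 2 the highest weight of all libraries, at 35.1 and 3.97.

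Genes with an unadjusted p under 0.05 numbered 224 against control, 427 against DEHP 20, 1794 against DiNP 100 and 219 for the change between times. With no filter, which tests more genes, they were 347 against control, 722 against DEHP 20 and 329 between times; with a mean above 2 log2 CPM they were 268 against DEHP 20. Array weights gave 3154 against control, 1214 against DEHP 20, 108 against DiNP 100 and 2067 between times, and gene-by-gene weights gave 1239, 941 and 1030 against control, against DEHP 20 and between times. The libraries of the contrast alone gave 340 against DiNP 100 and 351 between times, and the 3-month libraries alone gave 1186 against DiNP 100. Leaving out 1 library gave 177 to 306 against control, 277 to 4151 against DiNP 100 and 176 to 332 between times. With a replicate block they were 183 against control, 381 against DEHP 20, 1566 against DiNP 100 and 198 between times, with 0 calls in each.

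Signs of some small or noisy differences from control turned. With array weights and with gene-by-gene weights they were -0.12 and -0.08 log2 for Atf4, -0.49 and -0.22 for Ddit3, -0.33 and -0.09 for Trib3, -0.70 and -0.28 for H2-Eb1, 0.31 and 0.17 for C3, and 0.29 and 0.14 for Fshr; Hba-a1 was -0.06 with array weights. Leaving out 1 library gave these log2 ranges: Inha -0.44 to 0.05, Atf4 -0.19 to 0.25, Ddit3 -0.11 to 0.90, Trib3 -0.50 to 1.15, Chac1 -0.52 to 1.73, H2-Eb1 -0.18 to 2.32, Csf1r -0.07 to 0.46, C3 -0.55 to 0.33, Star -0.19 to 1.35, Cyp11a1 -0.21 to 0.54, Hsd3b1 -0.22 to 0.14, Cyp19a1 -1.22 to 0.03, Fshr -0.38 to 0.21, Esr1 -0.03 to 0.09, Esr2 -0.42 to 0.11, Amh -0.44 to 0.41, Inhba -0.43 to 0.12, Hsd17b1 -0.45 to 0.00, Kitl -1.45 to 0.00, Gdf9 -0.46 to 0.21 and Bmp15 -0.51 to 0.14. Depth here is approximate and 3 libraries a group leave a median half-width of 0.41 log2 for the 95% interval.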
